A study of Mus musculus with 111 samples.

Results

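Heart libraries of mice on a low-protein or a control diet made up 10 of the 111 small-RNA libraries of the series, 5 for each diet, and were chosen by the tissue and diet in the sample titles. Both groups ate their diet for 6 months. The control diet held 18% protein and the low-protein diet 10%, with sucrose filling the difference. Beside them stand 5 heart libraries of a high-fat control diet (7.2% of calories from fat) and 4 of a high-fat diet (60%), which shared the fit and its estimate of the spread. Strain, sex and age are not stated in the labels, and neither is whether each library of a group is a mouse of its own. The spread behind every p-value is therefore that among libraries, which may be technical. The study asks how diet alters cytosolic and mitochondrial tRNAs across tissues. Its assay, OTTR-seq, uses a reverse transcriptase that attaches the adapters itself as it copies each RNA, and every value below is a deposited read count or is computed from such counts.

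Transfer RNAs carry amino acids to the ribosome and pair with codons of the messenger through an anticodon. The mitochondrion makes its own set from its own genome, where tRNA genes lie between the genes for ribosomal RNA and for subunits of the respiratory chain and are cut out of long joint transcripts. Heart muscle is rich in mitochondria, and its mitochondrial tRNAs serve the translation of those respiratory subunits. Cytosolic tRNAs come from many nuclear genes, several per anticodon, and are read by RNA polymerase III together with 5S ribosomal RNA, the RNA of the signal recognition particle, 7SK, Y and vault RNAs.

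A few mitochondrial tRNAs held most of the reads. The genes shown here are those of the most abundant (valine, methionine and lysine) and of scarcer ones that fell. The latter are threonine, aspartate and leucine (TAG), with 3.22%, 1.80% and 0.109% of mitochondrial tRNA reads in controls. These are the genomic sequences of GENCODE M21 (GRCm38) in the sense of the tRNA, with T for U and without the added CCA end, and the capitals mark the anticodon. All 6 are tRNA genes annotated on the plus strand: mt-Tv at chrM:1025-1093, mt-Tm at chrM:3845-3913, mt-Tk at chrM:7700-7764, mt-Tt at chrM:15289-15355, mt-Tl2 at chrM:11671-11741 and mt-Td at chrM:6942-7011. Valine tRNA was the most abundant, methionine tRNA was called higher, and the other 4 fell.
mt-tRNA-Val-TAC-1: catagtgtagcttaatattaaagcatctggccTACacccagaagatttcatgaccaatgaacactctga
mt-tRNA-Met-CAT-1: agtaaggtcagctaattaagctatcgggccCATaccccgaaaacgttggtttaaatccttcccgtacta
mt-tRNA-Lys-TTT-1: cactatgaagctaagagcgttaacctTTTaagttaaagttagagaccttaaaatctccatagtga
mt-tRNA-Thr-TGT-1: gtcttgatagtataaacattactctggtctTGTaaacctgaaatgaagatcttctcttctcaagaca
mt-tRNA-Leu-TAG-1: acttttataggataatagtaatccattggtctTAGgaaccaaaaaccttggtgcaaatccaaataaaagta
mt-tRNA-Asp-GTC-1: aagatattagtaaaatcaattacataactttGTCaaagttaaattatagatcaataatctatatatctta

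The 2 diets differed in depth before any biology was compared. Reads over the 1042 features analysed (entries after duplicates were merged) ran from 735211 to 1467880 in the control libraries and were 176730, 187726, 29211, 107633 and 470061 in low-protein replicates 1 to 5. Control libraries detected 412 to 465 features and low-protein libraries 189 to 401, and 1 read was worth between 0.681 RPM (reads scaled to a library total of 1000000) in control replicate 5 and 34.2 RPM in low-protein replicate 3. The deposited column names also carry a number after the letter S, which ran from 5 to 9 in control and from 35 to 39 in low-protein libraries, so whatever it stands for and the diet cannot be told apart. Names of the high-fat control and high-fat heart libraries carry no such number, so the same holds for comparisons with them. Low-protein replicates 1 and 2 differed from replicates 3 to 5 in the share of mitochondrial tRNA, as described next. The table holds none of the 7 hairpins listed as heart muscle markers, so the tissue label could not be checked, and reads of piRNA precursors, listed as germ-line markers, numbered 1 to 20 per control and 1 to 12 per low-protein library.

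Mitochondrial tRNAs held most reads of every control heart, and their share in low-protein hearts went both ways. They took 74.7%, 76.5%, 78.0%, 76.4% and 77.3% of the reads in control replicates 1 to 5. Low-protein replicates 1 to 5 gave 82.4%, 87.3%, 36.7%, 46.5% and 60.2%, the first pair above every control library and the other 3 below. The means were 76.6% ± 1.21 (SD, n = 5) and 62.6% ± 22.01 (SD, n = 5). Their difference of -13.9 percentage points (SE 9.86) did not pass an exact two-sided permutation test (adjusted p = 0.241 over 9 classes), and it was -28.8 points without replicates 1 and 2 and 8.29 points without replicates 3 to 5. Cytosolic tRNAs mirrored this, with 21.3% to 23.9% in controls against 5.35%, 7.31%, 52.2%, 40.6% and 36.5% in low-protein replicates 1 to 5 (difference 6.04 points, exact permutation adjusted p = 0.571). With duplicated entries kept, where 5S ribosomal RNA is counted under 56 names, the mitochondrial difference was -30.1 points (exact permutation adjusted p = 0.0143). The cytosolic difference was 20.8 points without low-protein replicates 1 and 2, -16.0 points without replicates 3 to 5 and 0.0997 points without replicate 3.

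The classes that did separate the diets were the scarce ones. Hairpins annotated as microRNA genes took 0.0652% ± 0.0189 (SD, n = 5) of control reads and 1.94% ± 1.14 (SD, n = 5) of low-protein reads, 29.7-fold more, most of it from a hairpin entry inside the signal recognition particle gene Rn7s1. Small RNAs outside the other classes, led by the signal recognition particle RNA, went from 0.0484% to 1.82%, and ribosomal RNA, nearly all of it 5S, from 0.0977% to 1.80%. For these 3 classes no low-protein library overlapped a control library (exact permutation adjusted p = 0.0179 each, over 9 classes). They are not 3 separate results. Of 16931 hairpin reads 12896 were under Gm47295, the entry inside Rn7s1, which had 13510 reads. Another 2023 were under Gm47301, which overlaps a 5S entry that also had 2023 reads. Small nuclear RNA rose from 0.186% to 1.72% and small nucleolar RNA from 0.571% to 1.19% (exact permutation adjusted p = 0.0238 each), and both ranges overlapped. The small nucleolar difference of 0.622 points was 0.207 points and lost its call with duplicated entries kept (exact permutation adjusted p = 0.0714). Precursors of piRNA passed as well, at 0.000781% against 0.00364% of reads, and these shares rest on 78 reads in all 10 libraries. Mitochondrial ribosomal RNA did not pass (0.101% against 0.493%, exact permutation adjusted p = 0.0510). In the high-fat control hearts hairpins took 0.302% ± 0.0439 (SD, n = 5), above every control and below every low-protein library.

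**Figure D1:**
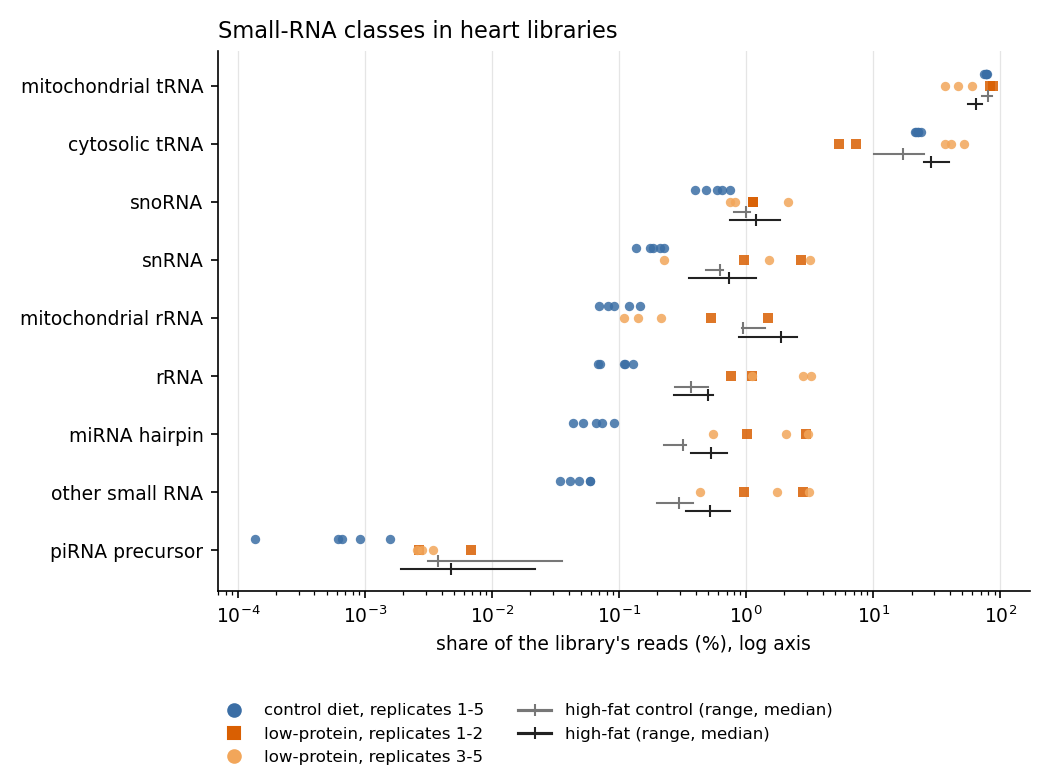
Share of each small-RNA class in the reads of a heart library (percent, log axis), with a point for each control and low-protein library and the range and median of the high-fat control (n = 5) and high-fat (n = 4) libraries as lines. Mitochondrial tRNA of low-protein replicates 1 and 2 (82.4% and 87.3%) lay above the control libraries and that of replicates 3 to 5 (36.7% to 60.2%) below them, while hairpins, other small RNA and rRNA lay above control in all 5.

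Across features, 242 of 1042 had enough reads to be tested, and 182 of them differed between the diets (75.2%, edgeR's quasi-likelihood test at a Benjamini-Hochberg adjusted p under 0.05). Of all tested features 33.5% were called higher and 41.7% lower in low-protein hearts, and for 52.9% the RPM ranges of the 2 groups did not overlap, and the counts below are to be read against these shares. The median log2 fold change was -0.29. Other scalings moved this median by 0.21 (RLE), 0.16 (total counts) and 0.24 (DESeq2), and no called feature changed direction under them. Leaving out 1 control library at a time moved it by 0.49 to 0.72, the most without control replicate 1, where 102 of 175 called features were higher. With all 10 libraries thinned to the 29211 reads of the shallowest, 61 features could be tested and 25 were called, 14 higher and 11 lower.

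**Figure D2:**
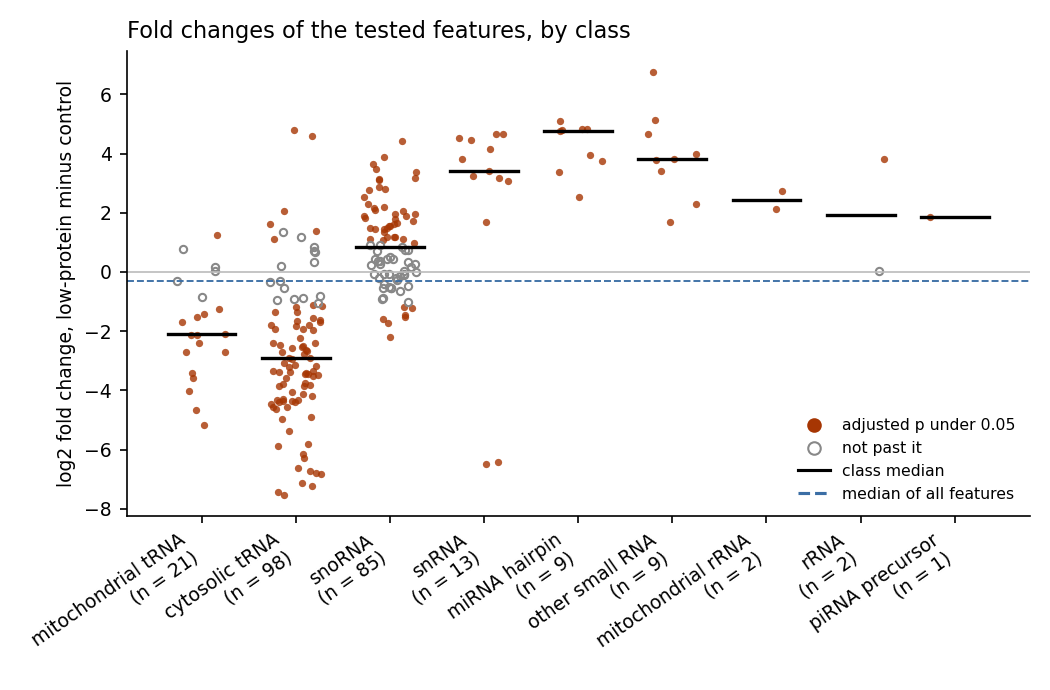
Log2 fold change (low-protein minus control) of the 242 tested features by class, filled where the adjusted p was under 0.05, with the class median as a bar and the median of all features (-0.29) as a dashed line. The medians of mitochondrial (-2.10) and cytosolic (-2.92) tRNA lie below that line, and those of small nuclear RNA (3.41) and hairpins (4.77) above it. Without the filter on low counts the small nuclear median was -2.70.

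Of the 22 mitochondrial tRNAs, 21 passed the filter on low counts and 1 was called higher and 15 lower, with a median log2 fold change of -2.10 against -0.29 over all features. The median was -1.50 to -1.26 without any 1 control library and -0.39 with the 10 libraries thinned to equal depth. The tRNA left untested, mt-tRNA-Ser-GCT-1, had 44 control and 6 low-protein reads. Light-strand tRNAs were called lower in 6 of 8 (median -1.62), and heavy-strand tRNAs in 9 of 13, with 1 higher (median -2.12). The lower calls of the glutamate, glutamine and histidine tRNAs (-1.26, -1.53 and -1.44) were among the less stable ones. Leaving out any 1 control library ended all 3 calls, with values of -0.632 to -0.458 for glutamate, -0.902 to -0.715 for glutamine and -0.781 to -0.696 for histidine. The glutamate call was also lost without low-protein replicate 2, 3 or 4, and the histidine call without replicate 4. At equal depth these 3 calls were lost again. So were those of arginine (-0.868), aspartate (-1.60), glycine (-1.32) and proline (-1.85) tRNAs (edgeR adjusted p = 0.066 to 0.262). Phenylalanine tRNA turned to 0.53 there (edgeR adjusted p = 0.717). A fit of only the 10 control and low-protein libraries also lost the glutamate, glutamine and histidine calls. It lost those of arginine (-1.24), phenylalanine (-1.19) and serine TGA (-0.967) tRNAs as well (edgeR adjusted p = 0.0532 to 0.0963). The serine TGA call was also lost without control replicate 1 (-0.979, edgeR adjusted p = 0.0517). The 5 not called in the main fit were the tRNAs for alanine, asparagine, isoleucine, leucine (TAA) and valine. For asparagine (0.77) this depended on the setting: it was called higher with RLE factors (0.956, edgeR adjusted p = 0.042), in DESeq2 (0.957, adjusted p = 0.0136) and without any 1 control library (1.37 to 1.48), but not with total counts.

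The tRNA for methionine, which in mitochondria serves both the start and the extension of chains, rose. Its level was 87869, 69004, 65096, 71020 and 73024 RPM in control replicates 1 to 5. In low-protein replicates 1 to 5 it was 214463, 174941, 100510, 189041 and 281298 RPM. Every low-protein library was above every control library, and the log2 fold change was 1.25 ± 0.50 (SE, edgeR adjusted p = 0.0178). Among mitochondrial tRNA reads alone its share went from 9.57% ± 1.29 to 32.2% ± 11.1 (SD, n = 5 each, exact permutation adjusted p = 0.0134). Its call in the fit was lost without low-protein replicates 1 and 2 (1.09, edgeR adjusted p = 0.0516), without the filter on low counts (0.999, edgeR adjusted p = 0.171) and with duplicated entries kept (0.45, edgeR adjusted p = 0.36).

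Lysine tRNA, after valine the most abundant mitochondrial tRNA in controls, fell in every low-protein library. It held 107761, 114171, 141461, 113535 and 94170 RPM in control replicates 1 to 5. Low-protein replicates 1 to 5 held 16715, 12374, 4450, 11623 and 7054 RPM. The groups were far apart, with a log2 fold change of -3.57 ± 0.55 (SE, edgeR adjusted p = 5.03e-10), and the share among mitochondrial tRNA reads went from 14.9% ± 2.13 to 1.67% ± 0.579 (SD, n = 5 each, exact permutation adjusted p = 0.0134). In high-fat control hearts the share was 3.01% to 5.78% and in high-fat hearts 3.68% to 6.91%, between the other groups without touching either.

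Threonine tRNA went from 19264 to 35259 RPM in controls to 826, 895, 274, 1459 and 1987 RPM in low-protein replicates 1 to 5 (log2 fold change -4.65 ± 0.58, SE, edgeR adjusted p = 2.49e-14). Leucine (TAG) tRNA, whose gene overlaps the serine (GCT) gene, had 221 to 1873 RPM in controls and 39.6, 26.6, 68.5, 0 and 21.3 RPM in low-protein replicates 1 to 5 (-5.17 ± 0.62, SE, edgeR adjusted p = 1.31e-15). That low-protein level rests on 24 reads against 5175 in controls. Neither tRNA overlapped between the diets. Tyrosine (-4.03), cysteine (-3.41), tryptophan (-2.71), aspartate (-2.71) and proline (-2.41) tRNAs also fell on the log2 scale, each with an edgeR adjusted p of 1.29e-05 or lower. The aspartate and proline calls were lost at equal depth, as given above. The value for arginine tRNA (-2.10) is less certain, because over the series it has 468611 reads under its tRNA name and 25789 under its gene name.

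Valine tRNA, whose gene lies between those of the small and large mitochondrial ribosomal RNA, was the most abundant RNA of the control heart at 219647 to 276214 RPM. Low-protein replicates 1 to 5 gave 450523, 587670, 210982, 158697 and 64449 RPM. The first pair lay above all controls and the other 3 below, and the tRNA was not called (log2 fold change 0.16 ± 0.49, SE, edgeR adjusted p = 0.776). The value was -1.42 without low-protein replicates 1 and 2 (edgeR adjusted p = 0.0183) and 1.70 without replicates 3 to 5 (edgeR adjusted p = 5.2e-06), so its direction depended on which libraries stood for the diet.

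Shares within mitochondrial tRNA reads do not move with the amount of the class, and 14 of 22 tRNAs passed there, 1 higher and 13 lower (exact permutation tests, adjusted over the 22). The lower 13 were the tRNAs for arginine, aspartate, cysteine, glycine, histidine, leucine (TAG), lysine, phenylalanine, proline, serine (TGA), threonine, tryptophan and tyrosine. All of these but histidine had ranges that did not overlap. Valine tRNA took 10.7% to 67.3% of these reads in low-protein libraries, so the shares were also taken without it. Histidine (log2 difference -0.737, exact permutation adjusted p = 0.25) and phenylalanine (-1.93, exact permutation adjusted p = 0.0588) then lost their calls. Asparagine (1.36), leucine TAA (0.812) and glutamine (-1.29) then passed. For 6 of the 13 (arginine, aspartate, leucine TAG, lysine, threonine and tyrosine) every low-protein library also lay below all 14 other heart libraries. For lysine, threonine, cysteine, phenylalanine, proline and tyrosine the 5 control libraries lay above all 14 others, the high-fat pair included. Glutamate tRNA split the low-protein libraries, at 1.29%, 1.05%, 0.904%, 3.83% and 11.8% in low-protein replicates 1 to 5 against 6.06% to 6.82% in controls, and did not pass (exact permutation adjusted p = 0.164).

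**Figure D3:**
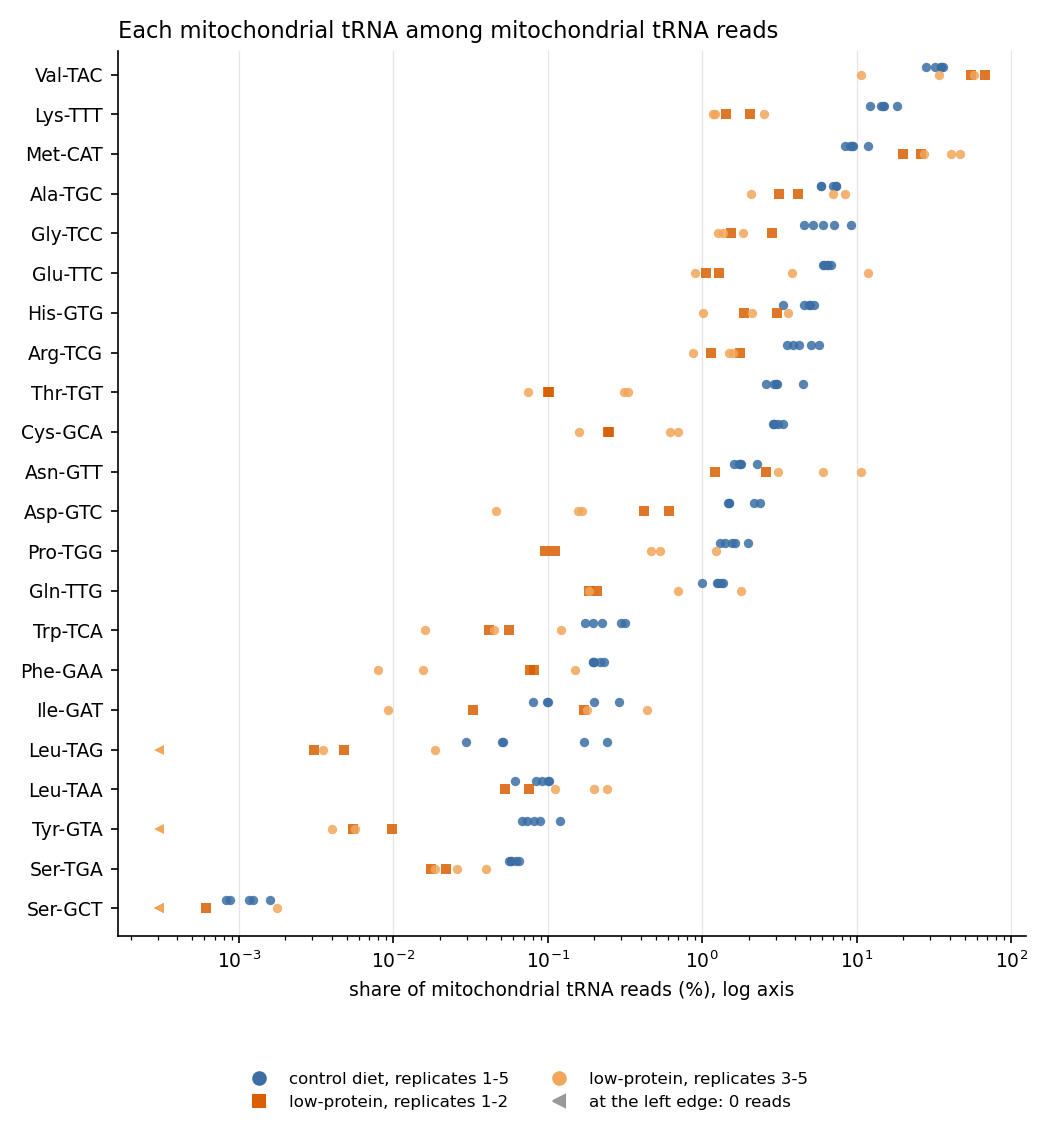
Share of each mitochondrial tRNA among the mitochondrial tRNA reads of a library (percent, log axis), one point per library and arrows at the left edge for 0 reads. Methionine tRNA lay higher in all 5 low-protein libraries (20.0% to 46.7% against 8.35% to 11.8%) and lysine tRNA lower (1.17% to 2.50% against 12.2% to 18.1%).

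Most tested cytosolic tRNAs fell, while aspartate and glutamate tRNAs took a larger share of the pool. Of 213 features 98 passed the filter, and 6 were called higher, 77 lower and 15 not called, with a median log2 fold change of -2.92 (-2.90 with the 8 that had 0 reads in a group set at their bound). The median was -2.24 to -2.02 without any 1 control library and -1.07 with the 10 libraries thinned to equal depth. The 6 that rose were 4 glutamate tRNAs, the selenocysteine tRNA, which reads a stop codon in selenoprotein messengers, and 1 glycine tRNA. Of these, tRNA-Glu-TTC-1-1 had 0 control and 6 low-protein reads and tRNA-Gly-GCC-4-1 had 4 and 24, and tRNA-Glu-CTC-1 went from 1.12 to -0.059 on the log2 scale when duplicated entries were kept and lost its call without low-protein replicate 4 (0.677, edgeR adjusted p = 0.142). The selenocysteine tRNA, tRNA-SeC-TCA-1, went from 1.604 to -0.497 on that scale without low-protein replicates 3 to 5. Reads of near-identical copies cannot be assigned with certainty, so the amino acid sums that follow are the firmer values.

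Tallied by amino acid, the falls covered whole families. All 12 tested leucine, 9 valine, 9 serine, 6 glutamine and 4 proline tRNAs were called lower, as were 12 of 14 for arginine and 5 of 6 for threonine. Of the tested tRNAs for amino acids that mice must eat, 33 of 34 were lower (median -3.80, or -3.57 with 2 at their bound), against 31 of 48 for those they can make, with 5 of the 48 higher (median -2.16). Arginine (14 tested), initiator methionine and selenocysteine tRNAs (1 each) are in neither set. The tested ones were 34 of 73 and 48 of 111 features. A scarce copy could pass the filter through the group where it was high. All tested aspartate and glutamate tRNAs, none of them called lower, are among the 48. Near-identical copies count separately, so these counts describe only the tested features. A link to amino acid supply was not tested. The tRNAs of the branched-chain amino acids, used by heart muscle as fuel, were lower in 22 of 22 (median -3.64). No aspartate tRNA of 4 was called (median 1.02), although the most abundant, tRNA-Asp-GTC-1, was called higher under other scalings, as given below, and 4 of 7 glutamate tRNAs were called higher with none lower (median 1.12).

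As shares of the cytosolic tRNA reads, 19 of 20 amino acids with enough reads passed exact permutation tests, 3 higher and 16 lower. Aspartate tRNA took 27.03%, 34.5%, 35.9%, 32.3% and 30.6% in control replicates 1 to 5. It took 58.6%, 49.6%, 74.5%, 30.4% and 67.5% in low-protein replicates 1 to 5, above all controls in 4 of 5 libraries (exact permutation adjusted p = 0.0418). This call was lost in 9 of the 10 fits that left out 1 library, all but that without low-protein replicate 4 (exact permutation adjusted p = 0.0668 to 0.0835), with log2 differences of 0.632 to 0.793 against 0.75. Glutamate tRNA went from 9.06% to 11.7% in controls to 27.8%, 34.2%, 10.5%, 55.9% and 15.0% in low-protein replicates 1 to 5 (exact permutation adjusted p = 0.0176). These ranges overlapped, and the call was lost without low-protein replicates 1 and 2 (log2 difference 1.05, exact permutation adjusted p = 0.0752). High-fat control hearts held 25.1% to 57.6% and high-fat hearts 54.2% to 62.8%, so a large glutamate share was not particular to the low-protein diet. Low-protein replicate 4, where aspartate was lowest, had the most glutamate, and replicate 3 the reverse.

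Valine tRNA showed the opposite. It went from 8.20% ± 1.67 to 0.421% ± 0.0997 of cytosolic tRNA reads (SD, n = 5 each), or 9.68%, 6.82%, 8.59%, 6.12% and 9.81% against 0.455%, 0.547%, 0.302%, 0.339% and 0.464%. Glutamine tRNA went from 12.0% ± 1.71 to 1.09% ± 0.445 and lysine tRNA from 12.9% ± 3.40 to 2.88% ± 0.262 (SD, n = 5 each). Histidine (2.67% to 0.156%) and initiator methionine tRNA (2.87% to 0.265%) fell too, the latter the tRNA that starts cytosolic proteins. No library of one diet overlapped the other for these 5 families (exact permutation adjusted p = 0.00992 each).

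Leucine and arginine tRNAs set the low-protein libraries apart from the rest of the heart. Leucine tRNA held 0.670% to 1.06% in control, 0.520% to 0.835% in high-fat control, 0.441% to 0.868% in high-fat and 0.0459% to 0.0732% in low-protein libraries. The low-protein value rests on 175 leucine reads. Arginine tRNA held 2.81% to 3.52% in control, 1.82% to 4.08% in high-fat control, 1.601% to 2.76% in high-fat and 0.772% to 1.22% in low-protein libraries. For valine, by contrast, the high-fat control (0.780% to 1.37%) and high-fat libraries (0.543% to 0.925%) were near the low-protein ones, and it was the control libraries that stood above all 14 others. Low-protein libraries lay below all others for arginine, cysteine, glutamine, histidine, leucine, lysine and proline. Control libraries lay above all others for alanine, asparagine, glutamine, glycine, histidine, isoleucine, methionine, initiator methionine, proline, tryptophan and valine.

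**Figure D4:**
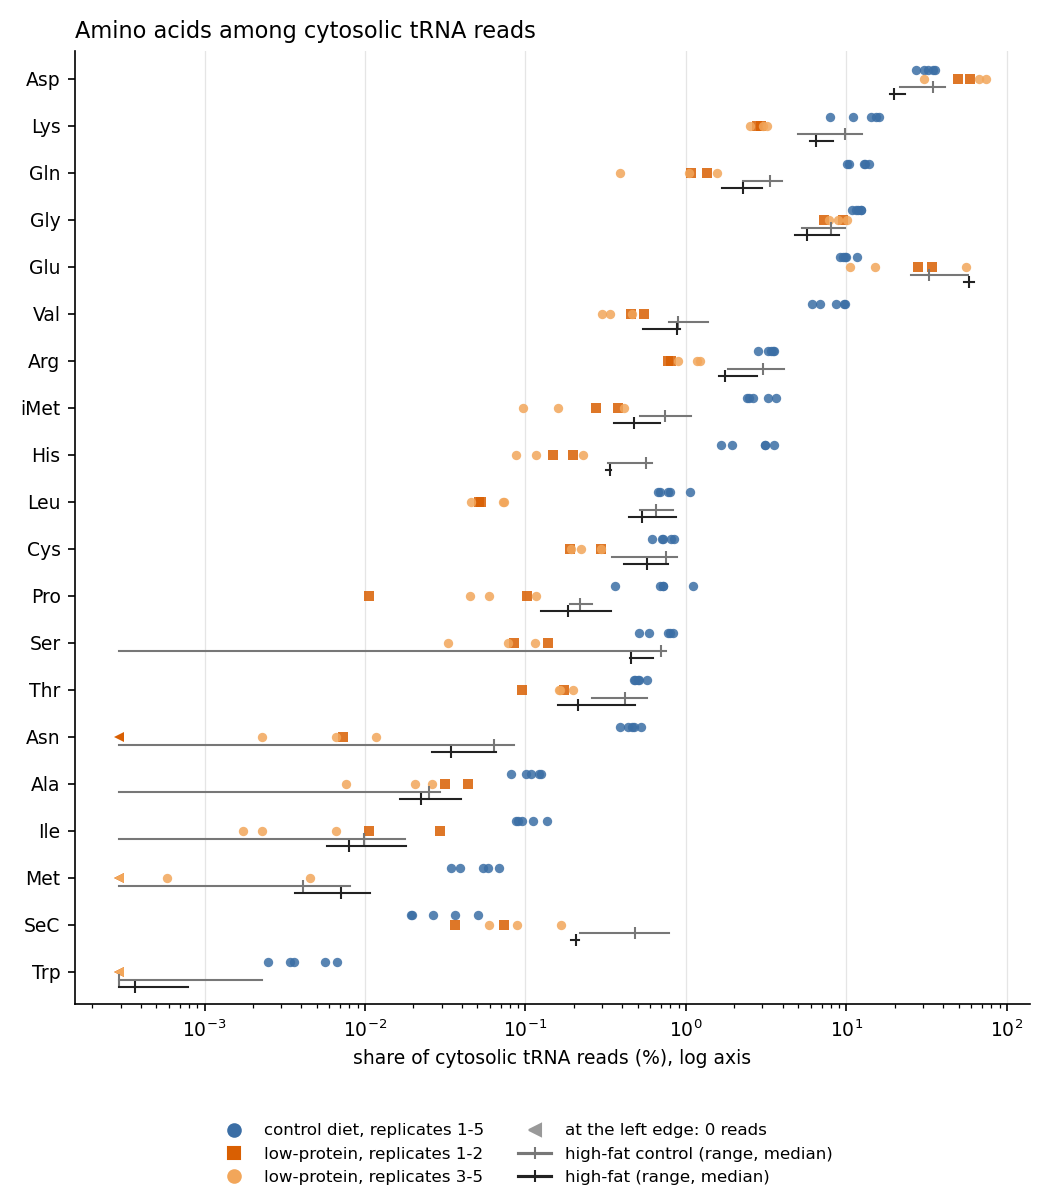
Share of each amino acid's tRNAs among cytosolic tRNA reads (percent, log axis), with points for control and low-protein libraries, arrows or lines reaching the left edge for 0 reads, and lines for the range and median of the high-fat control (n = 5) and high-fat (n = 4) libraries. Leucine in low-protein libraries (0.0459% to 0.0732%) lies below every other heart library, and valine in control libraries (6.12% to 9.81%) above every other.

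Within an amino acid, the anticodons shifted too, which is given as a description without a test. The threonine anticodon TGT made up 52.4% to 58.4% of threonine tRNA reads in controls and 80.0% to 100% in low-protein libraries, from 392 of their 414 threonine reads. In high-fat control libraries the range was 81.4% to 100%. The arginine anticodon TCT went from 51.1% to 57.7% in controls to 75.3% to 79.1%, with 79.6% to 95.2% in high-fat control libraries. The leucine anticodon TAA made up 18.8% to 36.6% in controls and 0% to 14.3% in low-protein libraries, where it had 6 reads.

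Several scarce tRNA copies had no reads in low-protein hearts, so only a lower bound of their fall can be given. Among those that kept reads, tRNA-Leu-TAA-2 (2095 against 5 reads, -6.27) and tRNA-Asn-GTT-3 (5364 against 19 reads, -6.15) had large measured falls on the log2 scale, and both are named here after their values were seen. The elongator methionine tRNA tRNA-Met-CAT-1 had 60.8, 20.6, 41.8, 24.5 and 45.6 RPM in control replicates 1 to 5 and 0 reads in the 5 low-protein libraries, which together hold 971361 reads. It was at least 12.3-fold lower, counting 3 reads over the group as the limit of detection. By the same rule tRNA-Arg-ACG-3 was at least 12.96-fold lower (213 reads against 0), tRNA-Thr-AGT-5 at least 10.6-fold (175 against 0) and tRNA-Arg-TCG-3 at least 10.0-fold (165 against 0). At least 8.39-fold held for tRNA-Ala-AGC-6, 7.54-fold for tRNA-Arg-TCG-1 and 7.06-fold for tRNA-Arg-ACG-2. The leucine tRNA tRNA-Leu-TAA-1 had 751 control reads and 1 low-protein read, a ratio of 137 in depth-scaled reads (exact 95% interval 24.5 to 5420, counting error only). Among other RNAs, the small nuclear RNA genes Gm25709 and Gm25869 had 113 and 108 control reads and 0 in low-protein hearts, at least 6.87-fold and 6.57-fold lower.

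The RNA of the signal recognition particle, which docks ribosomes making secreted proteins at the endoplasmic reticulum, was among the RNAs that rose. Rn7s1 (chr12:69159295-69159594, plus strand) had 473, 405, 347, 480 and 270 RPM in control replicates 1 to 5. Low-protein replicates 1 to 5 had 26804, 8811, 15645, 27780 and 3557 RPM. All 5 were far above control, with a log2 fold change of 5.12 ± 0.60 (SE, edgeR adjusted p = 4.08e-16). High-fat control libraries had 1617 to 3180 RPM and high-fat libraries 2916 to 5655. Gm47295, annotated as a hairpin inside Rn7s1 (chr12:69159518-69159596), had 12896 reads against 13510 for Rn7s1, so its 5.09 counts mostly the same molecules.

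Gm26461 (chr9:88553236-88553525, plus strand), a small RNA gene annotated only by number, had the largest rise of the tested features. Of its 279 stretches of 12 bases 139 also occur in Rn7s1, so reads of the 2 may not be separable. It had 2.64, 3.96, 2.72, 8.16 and 6.13 RPM in control replicates 1 to 5 and 351, 304, 753, 1877 and 226 RPM in low-protein replicates 1 to 5 (log2 fold change 6.76 ± 0.60, SE, edgeR adjusted p = 9.31e-27). In reads this was 25 against 449. The 3 tested members of the 7SK and signal recognition particle list rose (median 3.82), among them Rn7sk, the RNA that holds back the elongation factor P-TEFb (19.1 to 28.5 RPM against 117 to 725, log2 fold change 3.82).

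Other small RNAs were higher as well, and no list by RNA polymerase was tested. 5S ribosomal RNA, counted under Gm25018, had 664 to 1256 RPM in controls and 10983, 7633, 32145, 28012 and 11130 RPM in low-protein replicates 1 to 5 (log2 fold change 3.83 ± 0.56, SE, edgeR adjusted p = 6.72e-11). Rmrp, the RNA of the MRP ribonuclease that helps cut ribosomal RNA, went from 2.04 to 11.9 RPM to 29.8 to 260 RPM (4.65 ± 0.53, SE, edgeR adjusted p = 9.44e-17). The vault RNA Vaultrc5 (3.98) and the Y RNAs Rny1 (1.69) and Rny3 (2.28) were called higher on the log2 scale, although low-protein replicate 3 had 0 reads of either Y RNA. Cytosolic tRNAs, which RNA polymerase III also makes, were called lower in 77 of 98 tested features.

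Among the tested features, spliceosomal and nucleolar RNAs were more often called higher than lower. Of 93 small nuclear RNA features 13 were tested, of which 11 were higher and 2 lower (median 3.41). Over all tested features 33.5% were higher and 41.7% lower. Without the filter on low counts the small nuclear median was -2.70. A scarce feature could pass the filter through the group where it was high, so these counts describe only the 13. U1 RNA, which finds the start of introns, is represented by Rnu1a1 with 6.13 to 13.2 RPM in controls and 300, 74.6, 274, 316 and 31.9 RPM in low-protein replicates 1 to 5 (4.17 ± 0.50, SE, edgeR adjusted p = 1.01e-15). The most abundant were Gm23971 (3.17) and Gm23472 (3.25). Of 85 tested small nucleolar RNAs, guides for chemical marks on ribosomal RNA, 40 were higher and 7 lower (median 0.83), and this median was -0.04 when duplicated entries were kept. The box C/D members by name were higher in 24 of 44 with none lower, and box H/ACA members in 4 of 5. Snord104 had 176 to 305 RPM in controls against 617, 703, 1438, 2434 and 547 RPM (1.97 ± 0.49, SE, edgeR adjusted p = 0.000128). The most abundant, Snord80, overlapped, with 360 to 963 RPM against 205 to 4590 (1.55, edgeR adjusted p = 0.00417). Its call was lost without the filter on low counts (1.14, edgeR adjusted p = 0.0901), with duplicated entries kept (0.691, edgeR adjusted p = 0.231) and at equal depth (2.29, edgeR adjusted p = 0.103).

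The hairpins that rose are a family of near copies and hosts of other reads. Of 26 hairpin features 17 had reads and 9 were tested, all called higher, and since a scarce feature could pass the filter through the group where it was high, this count describes only the 9. The 22 hairpins that overlap no other entry took 0.00671% ± 0.00152 of control and 0.204% ± 0.108 of low-protein reads (SD, n = 5 each). The leading ones were Gm24187 (chr13:9834469-9834525, minus strand), Gm23935 (chr16:11144125-11144181, plus strand) and Gm24270 (chr9:56223715-56223771, minus strand), each 57 bases. The genes Gm23935 and Gm24270 are identical and differ from Gm24187 by A11G, counted from the 5′ end, so their reads cannot be told apart with certainty. They are shown because 3 named rises are in effect 1 sequence, and the capital marks the base that differs.
Gm24187: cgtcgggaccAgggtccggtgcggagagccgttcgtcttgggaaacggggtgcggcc
Gm23935: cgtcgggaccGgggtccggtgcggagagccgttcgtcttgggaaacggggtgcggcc
Gm24187 had 18.5, 9.50, 10.9, 15.0 and 10.9 RPM in control replicates 1 to 5 and 538, 213, 582, 762 and 204 RPM in low-protein replicates 1 to 5 (log2 fold change 4.82 ± 0.51, SE, edgeR adjusted p = 7.04e-19).

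Mir6236 (hairpin chr9:110281287-110281409, plus strand) went from 13.6 to 17.2 RPM in controls to 289, 176, 377, 548 and 113 RPM in low-protein replicates 1 to 5 (3.94 ± 0.49, SE, edgeR adjusted p = 1.92e-14). It is 1 of 6 hairpins among the 26 with a RefSeq sequence (GRCm38.p6), whose mature form is shown with its seed in capitals. The counts do not state the length of the reads, and the code gt65 that ends every column name is not explained. Nor do they show whether the reads came from this arm, so a rise of the mature microRNA is not shown.
mmu-miR-6236: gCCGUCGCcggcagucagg

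The 2 kinds of low-protein library differed in further features, chosen here after their values were seen. The aspartate tRNA tRNA-Asp-GTC-1 had 60357 to 72142 RPM in controls, 29452 and 34055 RPM in low-protein replicates 1 and 2, and 362911, 114045 and 227562 RPM in replicates 3 to 5. The first pair lay below and the rest above all controls, and the log2 fold change of 0.71 was not called (edgeR adjusted p = 0.188) in the fit with TMM factors. It was called at 1.17 with RLE factors (edgeR adjusted p = 0.0116), 1.20 with total counts (edgeR adjusted p = 0.014), 1.27 to 1.42 without any 1 control library, and 1.35 without low-protein replicates 1 and 2 (edgeR adjusted p = 0.0145). The large mitochondrial ribosomal RNA, mt-Rnr2, was high in the first pair, with 550 to 1207 RPM in controls, 11396 and 4123 in replicates 1 and 2, and 616, 1440 and 791 in replicates 3 to 5. Its log2 fold change of 2.14 was -0.24 without replicates 1 and 2, and its call was lost with duplicated entries kept (1.37, edgeR adjusted p = 0.0693). The small subunit RNA mt-Rnr1 was above control in all 5 (132 to 257 RPM against 3327, 1204, 787, 678 and 306). Of the 182 calls 156 stood in the same direction without replicates 1 and 2, and 162 of 181 without replicates 3 to 5. The part of depth in these differences was not tested, and in bulk tissue fewer cells of a type and less RNA per cell cannot be told apart.

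The high-fat control diet offers another control group, sequenced at 11320 to 661619 reads. The labels do not state the protein content of this diet. Read from the same fit, low-protein minus high-fat control called 101 of 242 features (41.7%), and high-fat control minus control, both control diets, called 139 (57.4%). These comparisons share libraries with each other and with the diet effect, so their values are set side by side only. For Rn7s1 they were 2.52 and 2.60 on the log2 scale, and for 5S RNA (Gm25018) 1.86 and 1.97, all 4 called. Mitochondrial lysine tRNA gave -1.77 and -1.80, both called, and mitochondrial threonine tRNA -2.20 and -2.45, both called. Other features lay nearly all on one side. Mitochondrial leucine (TAG) tRNA gave -4.77 (edgeR adjusted p = 2.53e-12) against -0.39 (edgeR adjusted p = 0.486), and mitochondrial arginine tRNA -2.06 against -0.04. The selenocysteine tRNA, in contrast, gave -1.81 and 3.41, and mt-Rnr2 -1.29 and 3.43, all called, and for both the sign of low-protein minus control turned when 1 kind of low-protein library was left out.

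The change in heart was set against that in liver in a fit of the 19 heart and liver libraries on these 2 diets. The diet effect differed between the tissues for 66 of 256 features (25.8%, edgeR interaction test), 43 with a higher and 23 with a lower effect in heart. With RLE factors the split was 34 to 38 and with total counts 66 to 23. It was 35 to 31 without heart low-protein replicates 1 and 2, and 32 to 59 without the filter on low counts. In liver too, the number after S in the column names did not overlap between the diets. It therefore cannot be told apart from the diet in either tissue. For Rn7s1 the log2 effect was 4.95 in heart and 0.47 in liver (difference 4.48 ± 0.93, SE, edgeR adjusted p = 0.00059). 5S RNA (Gm25018) gave 3.64 and 0.17 (edgeR adjusted p = 0.00141). Mitochondrial lysine tRNA gave -3.63 in heart and 0.14 in liver (difference -3.77 ± 0.90, SE, edgeR adjusted p = 0.00196). For mitochondrial methionine tRNA (1.28 and 2.37) and Gm23971 (3.01 and 1.89) the difference did not pass (edgeR adjusted p = 0.314 for both). Of the mitochondrial tRNAs 9 differed, all with the lower effect in heart.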

How the data were processed

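Small RNA of mouse tissues was sequenced by OTTR-seq, and the authors deposited 1 table of raw read counts per small-RNA entry for 111 libraries. The tools cutadapt and DESeq2 and the build mm10 are named, without their roles, per the submitters' processing notes. For the aligner, the rule for reads that match several entries and the number after S in the column names, a description was not given in the sources used here. Strand handling is not stated either. The counts hold 155 entries named as antisense partners, with 68 reads over the 111 libraries. For entries without such a partner, antisense reads cannot be told apart.

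The 1268 entries hold the same reads under several names. They were reduced to 1042 features by dropping the gene name of 22 mitochondrial tRNAs, 149 entries whose reads differed from another entry by under 5% and all but 1 of 56 5S entries. This reduction was made after the table was seen and kept 54.5% of the reads of the 10 heart libraries. RPM values are reads scaled to 1000000 over those features. Of 512 gene-named entries 507 matched GENCODE M21.

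Features were tested with edgeR 4.0.16 (R 4.3.3, limma 3.58.1; TMM factors, filterByExpr, quasi-likelihood F test) over all 19 heart libraries, with Benjamini-Hochberg adjustment over all tested features. Shares of classes, of mitochondrial tRNAs and of amino acids were compared by exact two-sided permutation tests over the 10 libraries (252 regroupings, smallest p 0.00794), and the latter 2 kinds on log2 shares with 0.5 reads added, for groups of at least 50 reads. The interaction with liver used 19 libraries. DESeq2 1.42.0, other scalings and filters, left-out libraries and a replicate block were the alternatives. Thinning to equal depth was added after the depths were seen. On simulated counts for 226 features of the heart comparison, 41.5%, 82.5% and 100% of changes of 1, 2 and 3 on the log2 scale were recovered, and 6 of 101 unchanged features were called. The simulated libraries came from control means with a common spread and hold no 2 kinds of low-protein library. These rates may therefore not carry over to the real data.

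Named features were, by rule, up to 10 with the largest changes in each direction, the 22 mitochondrial tRNAs, the 3 most abundant of each class and the 5 called with the smallest p in the interaction; members of the small lists (U1, Y, vault, 7SK) and other tRNAs were chosen after their values were seen. The members and lists were chosen with earlier results of these data known. Depth ran from 29211 to 1467880 reads, and intervals and detection limits (3 reads) cover counting error only, since reads without molecular identifiers are not independent molecules. No 2 libraries of a group agreed within sampling noise.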

Additional observations from a re-analysis of the deposited data

Results flagged for a closer look

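Several single-library values stood apart from the other 4 libraries of their group by Dixon's test at 95%. Chance flags about 1 in 20 groups, and 102 groups were tested. Low-protein replicate 4 was high in the class share of small nucleolar RNA (2.15% of reads) and in the cytosolic methionine tRNA share (0.00458%). Low-protein replicate 1 was high in piRNA precursors (0.00679% of reads). Low-protein replicate 5 was high in the mitochondrial glutamate tRNA share (11.8% of mitochondrial tRNA reads), and low-protein replicate 3, the shallowest library, in that of leucine (TAG) tRNA (0.0186%). Among controls, replicate 2 was high in mitochondrial asparagine tRNA (2.26%) and replicate 3 in mitochondrial threonine tRNA (4.52%).

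The 5 features below had a diet effect that differed between heart and liver with the smallest p (edgeR interaction test). The near-identical hairpins Gm24270, Gm23935 and Gm24187 had a heart effect larger than the liver effect by 4.56, 4.496 and 4.53 on the log2 scale (edgeR adjusted p = 6.99e-06 each). For Mir6236 the difference was 4.80 (3.75 in heart and -1.04 in liver, edgeR adjusted p = 9.42e-06). For Gm26461 it was 7.26 (6.47 in heart and -0.79 in liver, edgeR adjusted p = 1.04e-05).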

How the results depend on the processing

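The count of 182 called features was 291 without the filter on low counts, 283 with duplicated entries kept and 25 with the 10 libraries thinned to equal depth, and 170 to 191 when 1 library was left out. Scaling gave 179 to 187 calls. The 6 classes became 0 with the paired sign-flip replicate block, without low-protein replicates 1 and 2, and without replicates 3 to 5, and so did the 14 mitochondrial tRNAs. The 19 amino acids became 0 with that block and without replicates 3 to 5. The smallest p such exact permutation designs allow is 0.0625, 0.0357 and 0.0952, so lost calls say little there. Leaving out 1 library gave 6 to 7 classes, 14 to 16 mitochondrial tRNAs and 18 to 19 amino acids. The mitochondrial share difference was -30.1 points with duplicated entries kept and -20.1 to -7.47 with 1 library left out, and the cytosolic one 0.0997 to 11.8.

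Directions of called features reversed for mt-Rnr2 (-0.24), Snord82 (-0.047) and Snord72 (-0.017) without low-protein replicates 1 and 2, for tRNA-SeC-TCA-1 (-0.497), Gm24299 (0.197) and Gm24452 (0.0819) without replicates 3 to 5, for tRNA-Glu-CTC-1 with duplicated entries kept (-0.059), for mt-tRNA-Phe-GAA-1 at equal depth (0.53) and for the glycine share without the most abundant cytosolic tRNA (0.17). The cause was not tested.

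With the replicate number as a block 139 features were called, against 144 for the same 10 libraries without it. Deviations of same-numbered libraries correlated by 0.192, 0.142, 0.205, 0.019 and 0.274, and 2 of 5 libraries correlated best with their own number, so the numbers were not taken to pair the samples. Depth limits scarce tRNAs most: 3 reads are 103 RPM in low-protein replicate 3.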
